A study of Homo sapiens with 12 samples.

Results

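Just outside the gene loci of HEK 293T cells lay 4878 places where a small molecule had pulled down DNA, out of 51446 peaks in the whole list. These flank peaks were chosen by position alone. A peak counted when its centre lay on an autosome, inside no gene locus of the 3 h RNA table, and at most 5000 bases from the nearest locus. They made up 10.1% of the 48428 autosomal peaks, while 58.5% (28325 peaks) lay inside loci and 31.4% (15225 peaks) lay farther away. The peak list gave each peak a position on GRCh38.p7 and a score, averaged by the authors over the replicate pair in a unit that no source states.

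HEK 293T cells descend from human embryonic kidney and express a viral large T antigen. The 12 samples formed 6 groups of 2: the pull-down from purified, annealed genomic DNA, the input DNA, cells given PDP at 1 µM for either 3 h, 24 h or 72 h, and cells given DMSO for 3 h. Because the DNA was purified and annealed before the pull-down, the peaks describe naked DNA of this line and not DNA in its chromatin. PDP is given by its code name alone, and the labels do not say whether it is the molecule used for the pull-down. The RNA tables held 1 pooled FPKM value (fragments per kilobase of transcript, scaled to sequencing depth) for each gene and condition, and all 3 times were set against the same control, rescaled by a factor of 1.04 in the 24 h table and 0.968 in the 72 h table. No value of a single library was given, so neither replicate SD nor depth per library is known. Whether the members of a pair were grown separately is not in the labels. All 6 markers of the line were found in the RNA of control cells, from VIM, an intermediate filament gene, at 259 FPKM to PAX2 at 0.896 FPKM. LHX1, a kidney transcription factor, was at 4.89 FPKM. PAX2 was thus under the 1 FPKM that is used below to call a locus expressed. Of 6 markers of other cells, PTPRC, CD3E, HBB, ALB and PECAM1 were at 0.0869 FPKM or less in control cells, and COL1A1 was at 12.6 FPKM.

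G-quadruplexes are folded DNA structures in which guanines from separate G-rich runs pair in flat squares and stack on each other. They are best known from telomeres and from promoters of growth genes, where ligands that bind them can alter transcription. A flank of a gene locus holds, on its upstream side, the core promoter that recruits RNA polymerase and, on its downstream side, the DNA beyond the site where the transcript is cut and polyadenylated.

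Among flank peaks that overlap a promoter sequence, the 5 of highest score were read, and in 4 of these 5 sequences purines were gathered on 1 strand. Shares were 76.4% to 89.2% over the whole window, against 59.6% in the fifth. Promoter windows were the 250 bases before each of 33558 autosomal gene starts in RefSeq (GRCh38.p14), and 21 flank peaks on the chromosomes searched for sequences overlapped such a window by at least 125 bases. The 5 of highest score are given on the gene's strand, 5′ to 3′. Their peaks covered 130 to 250 bases of the window, so whole-window shares include bases outside some of the peaks. Capitals mark the canonical quadruplex motif, which is 4 runs of at least 3 G with 1 to 7 bases between them, on either strand (as runs of C where it lies on the other strand). They belong to MEIS3 (score 47.8, chr19:47422234-47422483, minus strand) and PBX2 (score 18, chr6:32190203-32190452, minus strand), both homeobox transcription factors, to COTL1 (score 20.2, chr16:84618079-84618328, minus strand), an actin-binding protein, and to the uncharacterised LOC105372841 (score 36.9, chr21:45978255-45978504, plus strand) and LOC124901144 (score 24.05, chr5:176659973-176660222, plus strand).
MEIS3: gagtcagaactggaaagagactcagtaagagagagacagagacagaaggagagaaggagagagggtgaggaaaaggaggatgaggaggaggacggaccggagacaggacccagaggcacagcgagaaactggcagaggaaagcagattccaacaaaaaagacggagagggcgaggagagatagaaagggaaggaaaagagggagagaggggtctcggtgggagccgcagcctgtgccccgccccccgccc
LOC105372841: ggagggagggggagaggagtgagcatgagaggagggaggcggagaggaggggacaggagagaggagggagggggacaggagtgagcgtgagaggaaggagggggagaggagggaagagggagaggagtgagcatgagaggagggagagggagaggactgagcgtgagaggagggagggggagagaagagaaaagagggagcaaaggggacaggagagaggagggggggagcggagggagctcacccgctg
LOC124901144: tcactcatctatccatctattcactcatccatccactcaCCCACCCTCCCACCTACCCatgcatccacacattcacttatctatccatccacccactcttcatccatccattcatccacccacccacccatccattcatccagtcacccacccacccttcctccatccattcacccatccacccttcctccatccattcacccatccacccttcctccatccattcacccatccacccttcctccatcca
COTL1: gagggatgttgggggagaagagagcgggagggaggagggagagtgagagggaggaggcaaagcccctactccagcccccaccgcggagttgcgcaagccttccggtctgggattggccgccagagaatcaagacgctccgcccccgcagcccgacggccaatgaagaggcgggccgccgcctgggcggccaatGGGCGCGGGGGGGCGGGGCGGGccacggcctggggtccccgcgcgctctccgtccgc
PBX2: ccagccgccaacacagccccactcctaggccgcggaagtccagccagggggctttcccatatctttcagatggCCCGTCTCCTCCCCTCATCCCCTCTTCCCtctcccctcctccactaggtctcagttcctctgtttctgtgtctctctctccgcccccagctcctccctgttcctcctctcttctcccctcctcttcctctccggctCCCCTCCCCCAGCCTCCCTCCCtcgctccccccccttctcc

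MEIS3 and LOC105372841 had the highest scores of these 5 and held no canonical motif. Their windows were 76.4% and 89.2% purine, as runs such as GGAGG and GAGAG. LOC124901144, with 77.2% pyrimidine, and PBX2, with 78.8% pyrimidine, carried the purines on the other strand, and both held the motif there. COTL1 was the exception among the 5 over its whole window, with the motif on the gene's strand and a share of 59.6%. Its opening stretch, where the peak was centred, nevertheless held purine runs such as GGAGG and GAGAG. Of the 12 windows that held the centre of a flank peak, 7 (58.3%, Wilson 95% interval 32.0 to 80.7) were at least 70% purine or at least 70% pyrimidine, against 354 of all 33558 windows (1.05%, interval 0.951 to 1.17). The median share was 71.6% in the 12 windows and 54.0% in all windows. The canonical motif was in 6 of the 12 (interval 25.4 to 74.6%) and in 23.3% of all windows. The level of 70% was chosen after the shares had been seen, and windows of neighbouring gene starts can overlap.

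Windows of high strand asymmetry held a peak centre more often than other windows did, although most of them held none. Of the 354 windows at or over 70%, 21 (5.93%, interval 3.91 to 8.90) held the centre of some autosomal peak, inside or outside loci, and 7 (1.98%, interval 0.961 to 4.02) that of a flank peak. Of the 33204 windows under 70%, 13 (0.0392%, interval 0.0229 to 0.0670) held the centre of some peak and 5 (0.0151%, interval 0.00643 to 0.0352) that of a flank peak. The share rose with asymmetry, to 12 of 42 windows (28.6%, interval 17.2 to 43.6) at 80% or more. Windows with and without the motif had overlapping intervals: 12 of 7832 windows with it (0.153%, interval 0.0877 to 0.268) held a peak centre, and 22 of 25726 without it (0.0855%, interval 0.0565 to 0.129). Among windows at or over 70%, a peak centre was in 10 of 233 with the motif (4.29%, interval 2.35 to 7.72) and in 11 of 121 without it (9.09%, interval 5.15 to 15.5), so the intervals overlapped. By quintile of GC content from low to high, 2, 1, 2, 5 and 2 windows held the centre of a flank peak, with the 5 at 62.4% to 70.4% GC. For peaks of any place, the quintile of windows with 54.0% to 62.0% GC had the most, 14 of 6756, and the quintile from 70.8% to 96.4% GC, of which 60.2% held the motif, had 2 of 6406. A looser motif with runs of at least 2 G, which 77.8% of all windows held, was in 11 of the 12 windows with the centre of a flank peak.

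**Figure D1:**
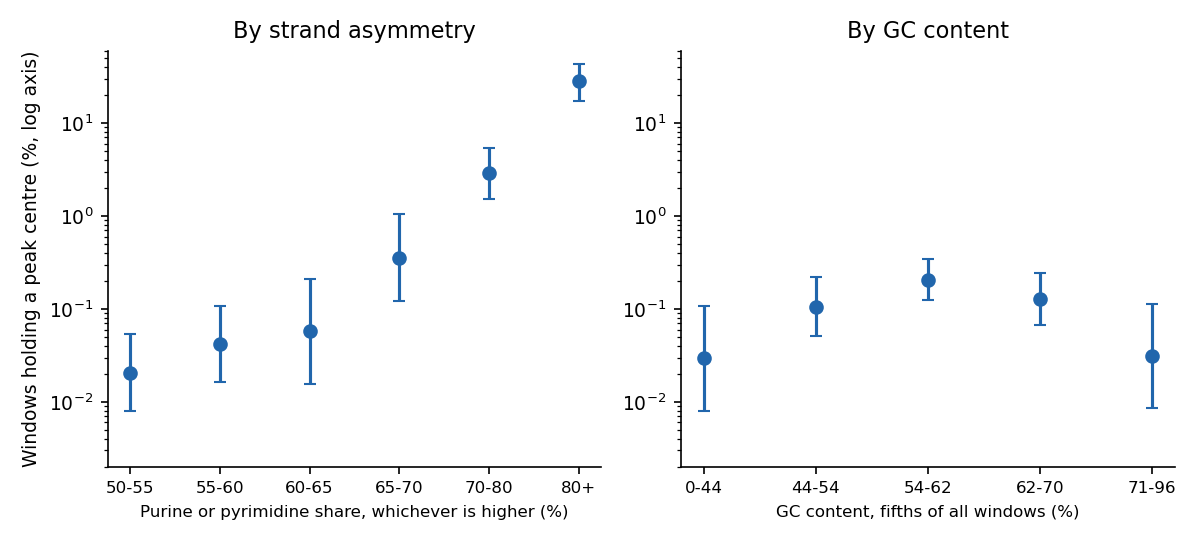
Share of 33558 RefSeq promoter windows (250 bases each) that hold the centre of any autosomal pull-down peak, in percent on a log axis, by the purine or pyrimidine share of the window, whichever is higher (left), and by quintile of GC content (right). Points are shares and bars are Wilson 95% intervals. The share climbs to 28.6% of windows at the highest asymmetry, while over GC content it is highest in the middle quintile.

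Few promoter windows of any gene held a peak centre, 34 of 33558, so a short list of promoters known for quadruplexes could be described but not compared with the rest. Windows were found for 14 genes of a list of oncogenes with promoter G-quadruplexes. The motif was in 9 of them, and 0 of the 14 held a peak centre or had 125 bases inside a peak. Where a count of 0 is taken to allow up to 3, this allows a share of up to 21.4%. From the gene start to the nearest peak centre was 1946 to 120451 bases, with a median of 9849 bases, and 4 genes had a centre within 5000 bases. For comparison with the windows under peaks, the pair of genes with the motif in this list and the highest control FPKM, chosen after their values were seen, are shown in the same way: HSP90AA1 (chr14:102139750-102139999, minus strand), the stress-inducible chaperone, and HIF1A (chr14:61695263-61695512, plus strand), the oxygen-regulated transcription factor subunit.
HSP90AA1: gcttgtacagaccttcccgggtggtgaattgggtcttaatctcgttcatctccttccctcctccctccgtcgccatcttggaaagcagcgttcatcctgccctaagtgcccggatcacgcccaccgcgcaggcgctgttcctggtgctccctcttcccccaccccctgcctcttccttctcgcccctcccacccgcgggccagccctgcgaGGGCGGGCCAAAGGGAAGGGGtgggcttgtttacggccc
HIF1A: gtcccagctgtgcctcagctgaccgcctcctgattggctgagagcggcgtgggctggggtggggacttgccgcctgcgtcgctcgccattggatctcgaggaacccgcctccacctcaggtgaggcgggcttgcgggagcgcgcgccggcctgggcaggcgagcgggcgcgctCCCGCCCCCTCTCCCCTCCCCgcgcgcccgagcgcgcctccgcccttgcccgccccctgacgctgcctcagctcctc

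HSP90AA1 was at 826 FPKM in control cells, with its nearest peak centre 50826 bases from the RefSeq start used. HIF1A was at 65.5 FPKM, with its nearest centre 11919 bases from the start used. The FPKM are for whole genes, and whether the RNA of either gene starts there was not checked. Their windows were 62.8% and 58.0% purine or pyrimidine. No match or absence of letters in these windows shows whether a quadruplex forms there.

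Flanks held slightly more peaks per base than loci did. The flanks covered 225 Mb and held 21.7 peaks per Mb (exact Poisson 95% interval 21.1 to 22.3), against 18.5 peaks per Mb (interval 18.3 to 18.7) over 1533 Mb inside loci. The ratio was 1.17 (exact conditional binomial 95% interval 1.14 to 1.21). Among peaks with a score at or over 10.95, the median of all autosomal peaks, the ratio was 1.32 (interval 1.26 to 1.37), and among those at or over 19.55 it was 1.56 (interval 1.43 to 1.71). Scores of flank peaks ran from 6.65 to 120.35 with a median of 11.35 (interval 11.25 to 11.49) and quartiles of 9.33 and 15.1. Peaks inside loci had a median of 10.82 (interval 10.76 to 10.88) and those farther away 11.03 (interval 10.97 to 11.10). The higher median was not particular to the flank. Peaks 5000 to 10000 bases away had a median of 11.54. In bins of distance up to 5000 bases inside a locus edge, medians ran from 11.095 to 12.575. A score of 19.55 or more was reached by 12.4% of flank peaks (Wilson interval 11.5 to 13.4), by 9.31% of peaks inside loci (interval 8.98 to 9.65) and by 10.8% of peaks farther away (interval 10.3 to 11.3). Flank peaks had a median width of 407 bases, between 402 and 721. All these intervals cover counting error only and treat peaks as independent, and copy number of the line and read coverage of the input could not be set beside the densities.

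The excess over loci was not a pile-up at the edge: peaks were scarcest right beside it. Within 250 bases of a locus edge lay 184 flank peaks, 12.4 per Mb (interval 10.7 to 14.3). Density was 20.6 per Mb (interval 18.3 to 23.2) from 250 to 500 bases and highest, at 26.0 per Mb (interval 23.4 to 28.9), from 500 to 750 bases. From 1000 bases to the limit it stayed between 20.8 and 23.8 per Mb. The first 250 bases had 0.555 times the density of the rest of the flank (interval 0.476 to 0.643), a comparison added after the data had been seen. Over all flank peaks, density in the first 1000 bases was 0.947 times (interval 0.864 to 1.04) that in the last 1000. With the 151 flank peaks that touch a locus removed, it was 0.822 times (interval 0.748 to 0.904). That filter takes peaks only from beside the edge and leaves the bases unchanged, so it lowers the ratio by construction. The dip was on both sides of the edge, with 6.50 peaks per Mb (interval 5.25 to 7.97) in the first 250 bases inside loci. From 1500 to 5000 bases inside loci, density ran from 18.5 to 24.1 per Mb. Away from the dip, DNA inside loci near their edge thus held about as many peaks as the flank. The excess was over whole loci. Outside the flank, density was 19.4 per Mb from 5000 to 10000 bases and 16.7 per Mb from 20000 to 50000 bases, below the flank's own 21.7.

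**Figure D2:**
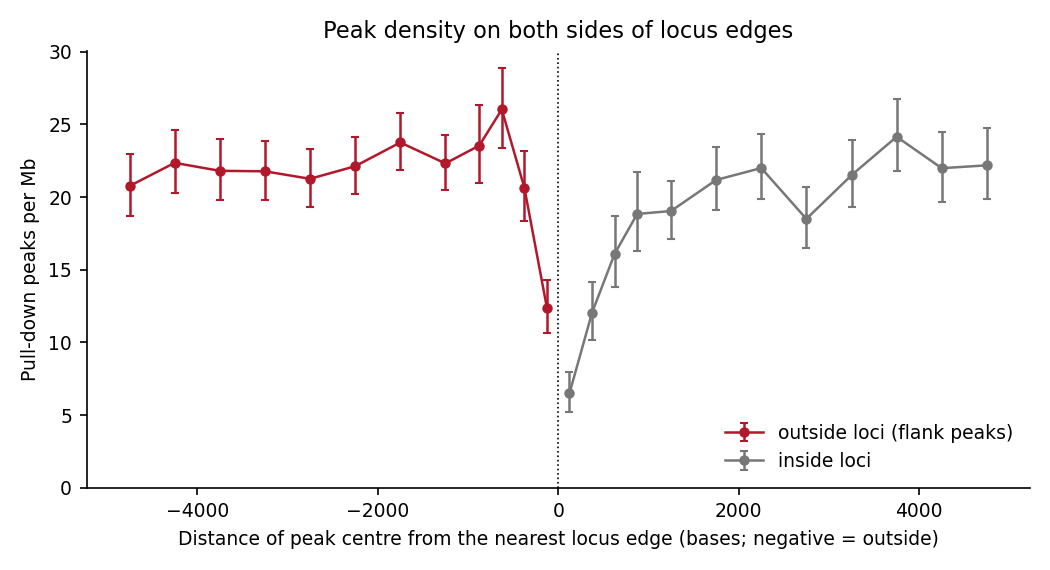
Pull-down peaks per Mb (y axis) against the distance of the peak centre from the nearest locus edge in bases (x axis, negative outside loci), for flank peaks in red and peaks inside loci in grey, over autosomes. Bars are exact Poisson 95% intervals, and both curves drop towards the edge, to 12.4 per Mb outside and 6.50 per Mb inside.

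Gene starts and gene ends could be told apart at 6148 loci that hold 1 gene with a strand in RefSeq, of 22231 loci with 1 gene. At these loci 503 flank peaks lay upstream of the start, 25.3 per Mb (interval 23.2 to 27.6), and 521 downstream of the end, 24.3 per Mb (interval 22.3 to 26.5), a ratio of 1.04 (interval 0.919 to 1.18) that was 0.925 (interval 0.772 to 1.11) with a limit of 2000 bases. In the first 250 bases, the upstream side held 8 peaks, 5.86 per Mb (interval 2.53 to 11.5), and the downstream side 23, 15.4 per Mb (interval 9.78 to 23.2). The ratio was 0.380 (interval 0.147 to 0.879). It was 0.470 (interval 0.163 to 1.21) for protein-coding genes and 0.639 (interval 0.397 to 1.01) for the first 500 bases, and both of these intervals include 1. From 500 to 1000 bases density was 29.6 per Mb upstream and 31.6 per Mb downstream, so the low stretch was narrow. In the first 250 bases inside, both ends held 6 peaks, 3.91 per Mb (interval 1.44 to 8.51). Beyond that the gene end stayed low for longer, with 6.64 peaks per Mb (interval 3.18 to 12.2) from 250 to 500 bases inside, against 18.6 per Mb (interval 12.4 to 26.9) at the same distance inside the gene start.

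**Figure D3:**
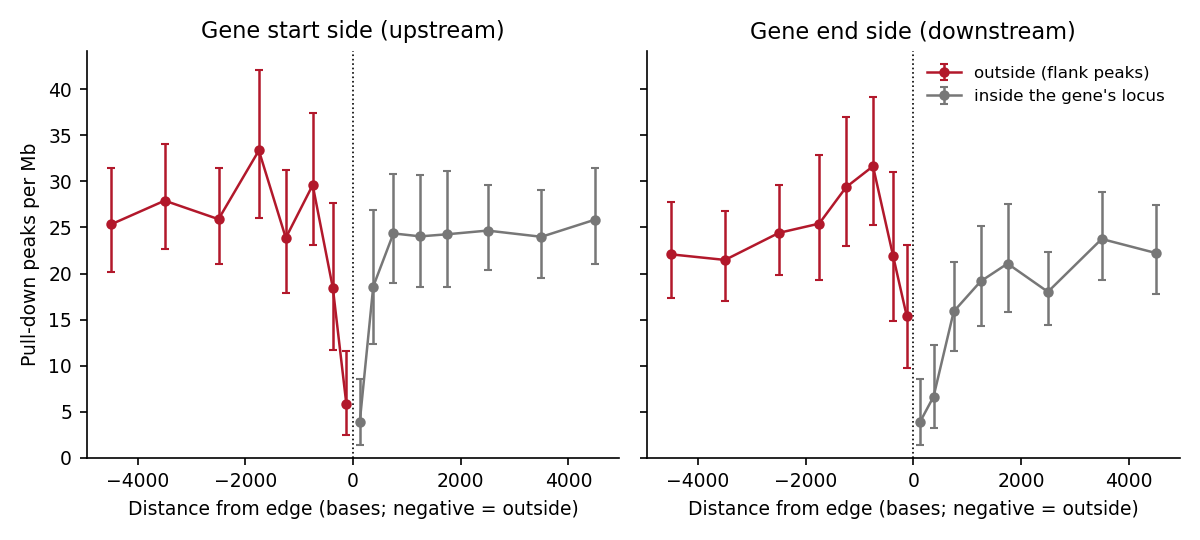
Pull-down peaks per Mb (y axis) against distance from the gene start (left) and gene end (right) in bases, negative outside the locus, for 6148 loci with 1 gene of known strand. Flank peaks are red, peaks inside the locus grey, and bars are exact Poisson 95% intervals. The first 250 bases outside hold 5.86 peaks per Mb at gene starts and 15.4 at gene ends.

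RefSeq starts gave a second view of gene starts. The promoter windows cover 3.07 Mb outside loci and held 11 flank peaks, 3.58 per Mb. The rest of the flank held 21.9 per Mb. The ratio was 0.163 (interval 0.0815 to 0.293). It was 0.131 (interval 0.0426 to 0.306) over windows with the lower GC contents, split at the median of all windows, and 0.190 (interval 0.0765 to 0.393) for peaks with scores at or over 10.95. This comparison too was added after the data had been seen. Window bases outside loci were counted at any distance from a locus, while peaks were counted only within the flank. Windows beyond the flank could hold no flank peak, and their bases were also taken off the total for the rest of the flank. These ratios may therefore be too low, by an amount that was not measured. RefSeq and the RNA tables do not always place a start at the same base: 3709 of the 6148 starts lay within 50 bases of the locus edge, and the peak over the MEIS3 window had its centre 3016 bases from the MEIS3 locus.

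Flanks of genes that make RNA in these cells and flanks of silent genes differed less than flanks of genes and pseudogenes did. A locus was called expressed when its gene of highest control FPKM reached 1. Flanks of the 9843 expressed loci held 24.1 peaks per Mb (interval 22.8 to 25.3) and those of the 21547 silent loci 20.8 per Mb (interval 20.1 to 21.5), a ratio of 1.16 (interval 1.09 to 1.23). Among loci with 1 protein-coding gene the ratio turned to 0.919 (interval 0.816 to 1.04). In that class the density was 26.0 per Mb (interval 23.7 to 28.4) under 0.1 FPKM and 24.5 per Mb (interval 17.1 to 33.9) at 100 FPKM or more. By gene type, flanks of loci with 1 protein-coding gene held 25.6 peaks per Mb (interval 24.1 to 27.1), those with 1 long noncoding RNA gene 24.4 (interval 21.9 to 27.2) and those with 1 pseudogene 17.1 (interval 15.9 to 18.4). The ratio to pseudogenes was 1.50 (interval 1.36 to 1.64) for protein-coding genes and 1.43 (interval 1.26 to 1.63) for long noncoding RNA genes. Antigen receptor V segments had the lowest density, 12 peaks and 8.23 per Mb (interval 4.25 to 14.4). A gene type was matched for 68.9% of loci with 1 gene, so these values describe matched loci only; the 6912 unmatched ones had 20.6 per Mb.

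**Figure D4:**
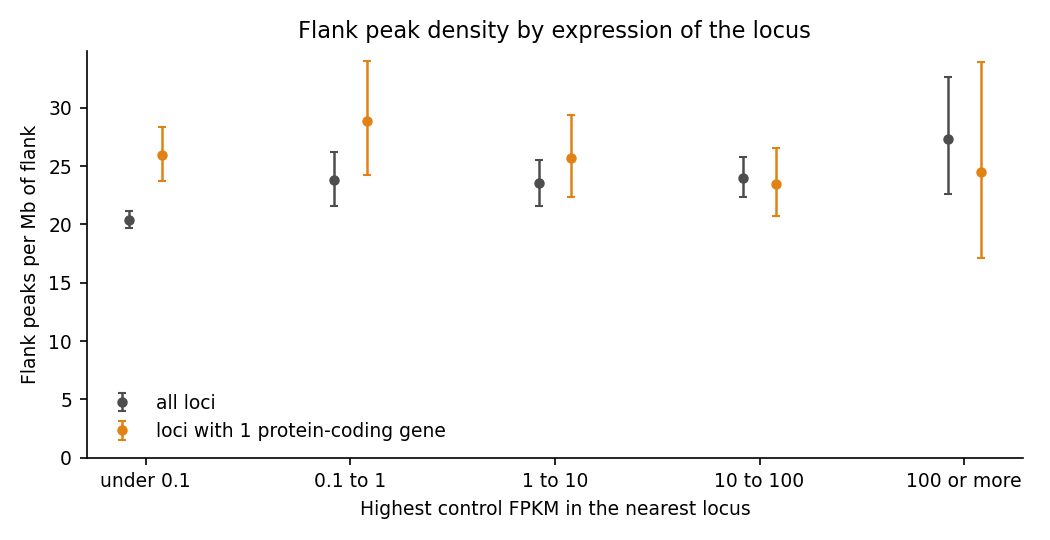
Flank peaks per Mb of flank (y axis) by the highest control FPKM in the nearest locus (x axis), for all loci in grey and for loci with 1 protein-coding gene in orange. Bars are exact Poisson 95% intervals. Over all loci the class under 0.1 FPKM is lowest, at 20.4 per Mb, whereas for protein-coding loci that class is at 26.0 per Mb and no order with FPKM is seen.

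Density also differed with the space around a locus. Gaps under 1 kb between loci held 13 flank peaks, 10.2 per Mb (interval 5.41 to 17.4). Gaps of 1 to 10 kb held 24.2 per Mb (interval 22.9 to 25.6), those of 10 to 50 kb 22.5 (interval 21.6 to 23.4), and those of 50 kb or more 18.3 (interval 17.2 to 19.4). Gaps under 1 kb lie wholly within 500 bases of an edge, where density was low over all flanks. Loci shorter than 1 kb had the fewest peaks in their flanks, 18.1 per Mb (interval 17.1 to 19.1), against 24.1 per Mb (interval 22.9 to 25.2) for loci of 10 to 100 kb.

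Flank density varied between chromosomes. It ran from 9.46 peaks per Mb (interval 6.97 to 12.5) on chromosome 18 to 31.6 per Mb (interval 27.4 to 36.3) on chromosome 20. The ratio to loci of the same chromosome was above 1 on 19 of 22 autosomes, with an interval above 1 on 10 of them. Chromosome 18 alone had an interval below 1, with 48 flank peaks and a ratio of 0.725 (interval 0.527 to 0.975). Chromosome 19, rich in zinc finger genes, had the highest median score of its flank peaks, 15.35, and a ratio of 0.930 (interval 0.786 to 1.09).

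Flank peaks were scattered singly. They were nearest to 4493 of 31390 loci (14.3%), of which 4129 had 1, 343 had 2 and 21 had 3, the most seen, and 247 had them on both sides. Only 10 flank peaks had the one before them within 1000 bases, and the median spacing was 214 kb. Expressed loci made up 30.6% of the loci with a flank peak and 31.5% of the others. The first 5 loci with 3 flank peaks, in genome order, were those of IFNLR1, INSL5, a pair of clone-named genes on chromosome 1 and AC011747.6. IFNLR1, the receptor chain for type III interferons, had a pair upstream and 1 downstream, with scores of 8.08 to 10.75. INSL5, an insulin-like gut hormone, had 1 upstream and a pair downstream, with scores of 10.3 to 10.95, and its RNA was listed at 0 in control cells.

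The 10 flank peaks of highest score lay beside genes of little or no RNA in control cells, none reaching 1 FPKM. The strongest, with a score of 120.35 at chr21:8228532-8228934, lay 1087 bases from a locus of 7 genes that includes the microRNA gene MIR3687-1, on the chromosome arm that carries ribosomal DNA. The next, at 82.4, lay 4051 bases from the microRNA gene MIR4477A on chromosome 9. Both microRNA genes have near-identical copies elsewhere, and how reads of repeated sequence were placed is not stated. The third, at 82.35, lay 4212 bases upstream of LINC01348, a long noncoding RNA gene. A score of 72.15 was found 1009 bases from the locus of FCMR, the receptor for immunoglobulin M, 63.6 was found 2882 bases from WNT7B, a secreted Wnt ligand at 0.108 FPKM, and 59.7 was found 2267 bases from MESP1, a transcription factor of early mesoderm at 0.737 FPKM. The other 4 lay beside AL133493.2 (68.05), RP13-554M15.8 (63.4), CCDC187 (62.95) and TTLL2 (59.15). Loci under 1 FPKM were nearest to 3426 of all 4878 flank peaks.

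At the 5000-base limit, the 5 peaks just inside lay 4998 to 5000 bases from EXOC1, CLASP1, SLC7A13, RP11-305F5.2 and TMEM121, with scores of 9.91 to 25.95. The 5 just outside lay 5004 to 5011 bases from SNORA26, ZNF123P, C12orf71, PSD2 and the SNRPGP10 locus, with scores of 7.84 to 22.

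When cells were given PDP, genes beside flank peaks were called lower in shares close to those of all genes. They were called higher in a somewhat larger share at 24 h. At 72 h the share called higher was 20.7%, with an interval that includes the 19% of all genes. The loci held 7838 genes, 14.2% of the 55061 autosomal genes. A gene was called changed when the authors' deposited table gave it a q-value under 0.05. At 3 h, 2 of 1960 tested genes beside flank peaks were called higher and 0 lower, where the table called 0.106% of all tested autosomal genes higher and 0.00704% lower. The 0 lower calls allow a share of up to 0.196% (Wilson upper limit). At an unadjusted deposited p under 0.05 there were 15 higher and 6 lower genes beside flank peaks. That count was not made over all tested autosomal genes, so nothing particular to flank peaks can be read from it. In bulk RNA, fewer cells of a kind and less RNA per cell cannot be told apart. The control cells were harvested at 3 h, so at 24 h and 72 h an effect of PDP and one of time in culture cannot be told apart. Expressed genes, with a geometric mean FPKM of at least 1, had a median log2 fold change of -0.0041 beside flank peaks and of -0.0032 at other loci. The pair called was MGLL, the lipase that breaks down monoacylglycerols, and RPL13AP5, a pseudogene of a ribosomal protein. MGLL was at 14.4 FPKM in PDP cells and 2.41 FPKM in control cells at 3 h, a log2 fold change of 2.58 (implied SE 0.54) with q = 0.0434 in the authors' deposited table. Its flank peak, with a score of 19.4, lay 550 bases from the locus. At 24 h MGLL was at 4.52 FPKM in PDP cells and 2.50 FPKM in control cells, which the authors' deposited table did not call (q = 0.0676). At 72 h that table called it again (q = 0.0485), at 27.7 FPKM in PDP cells and 2.33 FPKM in control cells. The log2 fold change of MGLL at 72 h was 3.57 with an implied SE of 2.37, much wider than at 3 h. RPL13AP5 was at 47.9 FPKM in PDP cells and 25.3 FPKM in control cells at 3 h. It shares sequence with RPL13A and other copies, so its own level is uncertain. The implied SE is what the log2 fold change and the test statistic of the authors' deposited table give together, and no library values were at hand to compare it with.

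At 24 h, 227 of 2066 tested genes beside flank peaks (11.0%, Wilson interval 9.71 to 12.4) were called higher, where 9.2% of all tested autosomal genes were, and 164 (7.94%) lower, where 8.33% were. Their median log2 fold change was 0.022, against -0.043 at other loci. Among 1-gene loci with a protein-coding gene the medians were 0.081 beside flank peaks (498 genes) and -0.076 at other loci (3044 genes), and over all loci with an FPKM minimum of 5 they were -0.068 and -0.12. The direction of the median thus rested on the minimum, while the genes beside flank peaks were the higher ones in each of these settings. No replicate values were at hand to test the difference of medians. HSPA1A, an inducible heat shock chaperone with a flank peak of score 22.2 lying 1199 bases downstream, rose to 48.3 FPKM in PDP cells, against 8.40 FPKM in control cells, a log2 fold change of 2.52 (implied SE 0.22, q = 0.000908 in the authors' deposited table). HSPA1A has a near-identical neighbour gene, so reads may be split between them. KIF12, a kinesin motor gene, was called higher, with 2.23 FPKM in PDP cells and 0.419 FPKM in control cells (log2 fold change 2.42, implied SE 1.25). ABCG4, a sterol transporter with a flank peak 1596 bases upstream, was called higher at 4.02 FPKM in PDP cells and 0.867 FPKM in control cells (log2 fold change 2.21, implied SE 0.52). The other named increases were GDF10, a growth factor of the TGF-beta family, JADE2, C1orf106 and TLR5, the flagellin receptor, with log2 fold changes of 1.87 to 2.15, and RP6-74O6.6, which was listed at 0 in control cells and at 1.28 FPKM in PDP cells. For TLR5 the implied SE of 1.61 was nearly as large as the log2 fold change of 1.87.

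Among the named decreases at 24 h, SRSF6, a splicing factor of the SR family with a peak 1236 bases downstream, fell to 52.8 FPKM in PDP cells, against 197 FPKM in control cells, a log2 fold change of -1.90 (implied SE 0.20, q = 0.000908 in the authors' deposited table). TRA2B, another SR-like splicing factor with a peak 1725 bases downstream, fell to 127 FPKM in PDP cells, against 268 FPKM in control cells (log2 fold change -1.08, implied SE 0.24). BCLAF1, an RNA-processing and transcription regulator, fell to 76.5 FPKM in PDP cells, against 189 FPKM in control cells (log2 fold change -1.30, implied SE 0.36). COL11A2, BCL7B, TBX3, FZD8 and EPC2 were also called lower, with log2 fold changes of -1.34 to -0.95. BCL7B belongs to a chromatin remodelling complex, TBX3 is a developmental transcription factor and FZD8 is a Wnt receptor.

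At 72 h, 426 of 2058 tested genes beside flank peaks (20.7%, Wilson interval 19.0 to 22.5) were called higher, where 19% of all tested autosomal genes were, and 259 (12.6%) lower, where 12.7% were. Among loci with 1 gene, 28.1% of 619 tested genes beside flank peaks were called higher, against 23.8% of 3851 at other loci, and among those with 1 protein-coding gene 29.5% of 532 against 23.7% of 3234. At 24 h the shares were 15.9% against 14.1% for loci with 1 gene and 16.3% against 13.6% for 1 protein-coding gene. These differences between shares were not tested, since genes are not replicates. The median log2 fold change at 72 h was 0.12 beside flank peaks and 0.11 at other loci. Genes whose flank peak was within 1000 bases had 21.6% called higher (Wilson interval 18.1 to 25.4), and those whose peaks were all farther off 20.4% (interval 18.5 to 22.5). HIST1H1C, a linker histone gene, rose to 68.7 FPKM in PDP cells, against 5.46 FPKM in control cells (log2 fold change 3.65, implied SE 0.36, q = 0.000393 in the authors' deposited table); at 24 h it was at 6.72 FPKM in PDP cells and 5.86 FPKM in control cells and was not called. KIF12 reached 6.69 FPKM in PDP cells and 0.391 FPKM in control cells (log2 fold change 4.10, implied SE 1.43). PTGS2, the inducible prostaglandin synthase, was called higher at 1.00 FPKM in PDP cells and 0.0616 FPKM in control cells, where the implied SE of 3.93 was nearly as large as the log2 fold change of 4.03. RP11-368N21.5 was called higher with a log2 fold change of 5.02 (implied SE 1.13), and FAM96AP2 and RP11-85A1.3 were listed at 0 in control cells and at 1.23 and 1.303 FPKM in PDP cells.

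SRSF6 was also called lower at 72 h, at 38.6 FPKM in PDP cells and 183 FPKM in control cells (log2 fold change -2.25, implied SE 0.20). VPS18, a tethering subunit for fusion with lysosomes, fell to 1.96 FPKM in PDP cells, against 10.9 FPKM in control cells (log2 fold change -2.47, implied SE 0.30). VANGL1, a planar cell polarity protein, fell to 3.65 FPKM in PDP cells, against 11.6 FPKM in control cells (log2 fold change -1.67, implied SE 0.44), and had the strongest flank peak of these genes, with a score of 30.65 at 617 bases upstream. The zinc finger genes ZNF782 and ZNF510, which lie close together on chromosome 9 and each have an upstream flank peak, were called lower, with log2 fold changes of -2.62 (implied SE 1.63) and -2.58 (implied SE 0.78). POP1, a subunit of RNase P, KDM4D, a histone demethylase, and SYTL2, a vesicle transport protein, completed the largest decreases, at -2.04, -1.99 and -1.79, the last with an implied SE of 1.88.

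**Figure D5:**
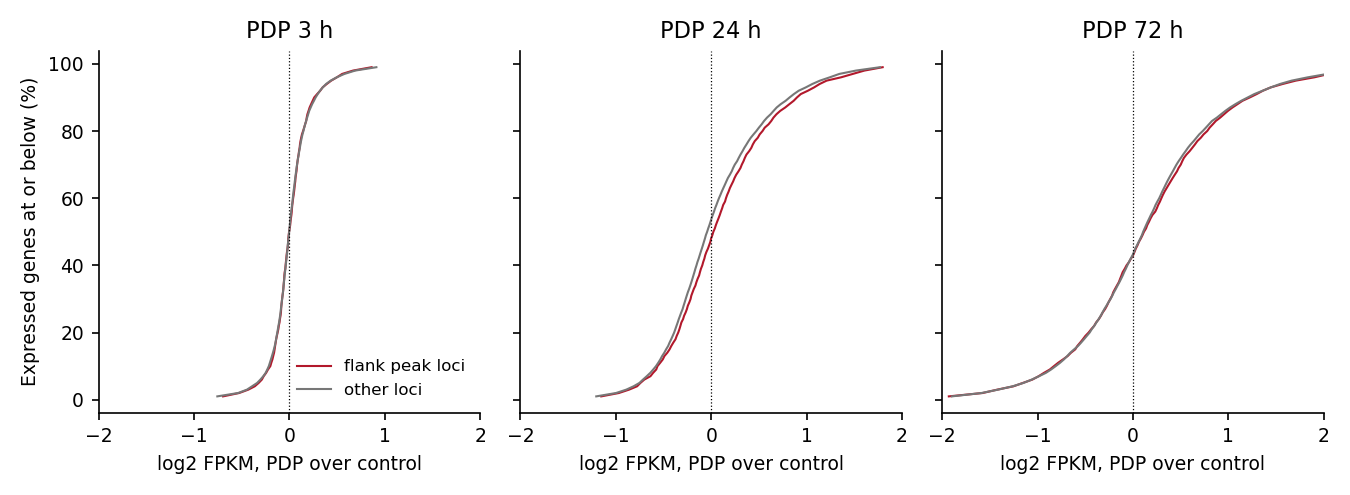
Cumulative share of expressed genes in percent (y axis) against the log2 ratio of FPKM in PDP cells over control cells (x axis) at 3 h, 24 h and 72 h, for genes at loci with a flank peak in red and genes at other autosomal loci in grey. The curves lie on each other at 3 h and 72 h, and at 24 h the red one lies slightly to the right, with medians of 0.022 and -0.043.

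Among gene lists, oncogenes with promoter G-quadruplexes had a flank peak at 4 of 19 autosomal genes found, FGFR2, KIT, TERT and VEGFA, where 15.0% of protein-coding genes had one. KIT, the stem cell factor receptor with an upstream peak 4804 bases away, was called higher at 24 h, at 10.2 FPKM in PDP cells and 5.57 FPKM in control cells (log2 fold change 0.87, implied SE 0.25), and at 72 h, at 11.7 FPKM in PDP cells and 5.19 FPKM in control cells. VEGFA, the vascular growth factor, was called higher only at 72 h, at 141 FPKM in PDP cells and 31.8 FPKM in control cells (log2 fold change 2.15, implied SE 0.39). TERT, the telomerase catalytic subunit, had 9.60 FPKM in PDP cells and 5.40 FPKM in control cells at 72 h, and FGFR2, a fibroblast growth factor receptor, had 9.28 FPKM in PDP cells and 8.50 FPKM in control cells, and neither was called. Over the whole list, 7 of 18 tested genes were called higher and 2 lower at 72 h, where 19% and 12.7% of all tested autosomal genes were. KIT and VEGFA were the members with a flank peak among those 7.

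Hypoxia genes had a flank peak at 5 of 23, BNIP3, CA12, NDRG1, SLC2A1 and VEGFA, and all 5 were called higher at 72 h, as were all 21 tested genes of that list, where 19% of all tested autosomal genes were. NDRG1, a stress-response gene, rose to 163 FPKM in PDP cells, against 23.5 FPKM in control cells (log2 fold change 2.79, implied SE 0.30), and BNIP3, a mitophagy receptor, to 175 FPKM in PDP cells, against 35.1 FPKM in control cells. Immediate early genes had one at 6 of 24, of which 5 of 6 were called higher at 72 h, and over the list 14 of 22 tested genes were, again beside 19% of all tested genes. JUN, a subunit of AP-1 with a peak of score 21.9 at 4254 bases downstream, rose to 263 FPKM in PDP cells, against 42.1 FPKM in control cells (log2 fold change 2.65, implied SE 0.19). Heat shock genes had one at 4 of 18, and HSPA1A was the only member of the 4 called at 24 h or 72 h. BAG3, HSPA4 and HSPA9 had log2 fold changes between -0.34 and 0.11. Over the list, 2 of 16 tested genes were called higher and 4 lower at 24 h, beside 9.2% and 8.33% of all tested autosomal genes. At 72 h, 8 of 18 were called higher and 1 lower, beside 19% and 12.7%. Splicing factor genes had one at 3 of 25, HNRNPA1, SRSF6 and TRA2B. Of these 3, 2 were called lower at 24 h and HNRNPA1 was not called, while over the list 12 of 25 were called lower, where 8.33% of all tested autosomal genes were. A flank peak was found at 5 of 30 homeobox and developmental genes and at 1 of 24 ribosome assembly genes, PNO1. At 24 h PNO1 fell to 27.1 FPKM in PDP cells, against 52.1 FPKM in control cells. Over the ribosome assembly list, 11 of 24 tested genes were called lower at 24 h, beside 8.33% of all tested autosomal genes. Among the genes of highest control FPKM beside flank peaks were the ribosomal protein genes RPS23, at 3230 FPKM, and RPSA, at 2057 FPKM.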

How the data were processed

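Pull-down and input libraries came from purified, annealed DNA of HEK 293T cells, and RNA libraries from poly(A) RNA of cells given PDP or DMSO, per the labels' protocols. Per the submitters' processing notes, the tools were HISAT2 2.0.5 and Cufflinks 2.2.1, HOMER 4.9.1, Bowtie2 2.2.9, Picard, SAMtools 1.3.1 and Trim Galore 0.4.4 with GRCh38.p7, and their settings are not given in the sources used here. The authors' deposited FPKM are pooled per condition. Each p-value and q-value was deposited with that table, whose columns are those of a Cuffdiff gene test between PDP and control cells. The score deposited for each peak is the authors' average over 2 replicates, and all 51446 peaks stand in both replicate files. From the deposited test statistic (a score) nothing but implied SEs was taken. Depth per library is unknown.

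Peaks were placed by their centre, and each base outside loci was assigned to its nearest locus. Fold changes were computed as log2 of deposited FPKM, PDP over control, with no pseudocount. Densities have exact Poisson intervals, ratios exact conditional binomial intervals, shares Wilson intervals and medians intervals from order statistics, all at 95%. They cover counting error only, and the fold changes have no test beyond the deposited one. Promoter sequences, strands and gene types were taken from RefSeq (GRCh38.p14), with 56980 of 58083 gene IDs matched to a symbol and a gene type for 68.2% of 55061 autosomal genes; 28 symbols that had become dates were restored by ID. No genome was used, so peaks were read as sequence only where a promoter window covers them, and no sequence of chromosome 8 was shown.

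Named were the 10 peaks of highest score, genes called at 3 h, the 8 largest increases and decreases called at 24 h and 72 h at 1-gene loci with a flank peak and at least 1 FPKM in either condition, the 5 loci with most flank peaks, up to 4 genes per list, the 5 peaks on each side of the limit, the 5 genes of highest control FPKM, and the 5 strongest flank peaks over a promoter window. Some genes that this rule names are not reported here. The members and lists were chosen with earlier results of these data known. Alternatives were other distance limits, score levels, FPKM minimums, a q of 0.01, 1-gene loci and a mean in place of a median. The placing of peaks was tested on simulated data. The software was Python 3.11.15 with SciPy 1.17.1, NumPy 2.4.6, Matplotlib 3.10.9 and pandas 2.3.3.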

Additional observations from a re-analysis of the deposited data

Results flagged for a closer look

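Chromosome X, which the choice of autosomes leaves out, held 336 peaks within 5000 bases of a locus and inside none. Their density was 25.4 per Mb (exact Poisson 95% interval 22.7 to 28.2), against 20.4 per Mb inside loci of that chromosome, a ratio of 1.24 (interval 1.10 to 1.40). They were set aside for a closer look because they are a signal in data outside the comparisons of the report.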

How the results depend on the processing

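Of 69 alternatives, 42 left a result the same by the rule for its kind. For a ratio, the interval still included or still excluded 1. A median stayed within the interval of the main setting. A count was equal to the main count or within a fixed factor of it, so 0 against 0 was also the same. The number of flank peaks was 2264 with a limit of 2000 bases and 7713 with 10000. The ratio of expressed to silent flanks reversed to 0.919 among loci with 1 protein-coding gene. The ratio of gene starts to gene ends in the first 250 bases was 0.470 for protein-coding genes and 0.639 for 500 bases, and both intervals include 1. The ratio of the first to the last 1000 bases was 0.822 with no base of a peak inside a locus, and its interval no longer included 1. That setting removes peaks only beside the edge, so its lower ratio was fixed by construction. The ratio of upstream to downstream flanks was 0.925 with a limit of 2000 bases and 1.04 at 5000, with intervals that include 1. Genes beside flank peaks called higher at 24 h numbered 138 of 2066 tested at a q of 0.01 (6.68%, 5.06% of all tested), 118 of 1038 with a limit of 2000 bases (11.4%, 9.2%), 98 of 617 at loci with 1 gene (15.9%, 14.3% of all at such loci) and 136 of 1158 with scores at or over the median (11.7%, 9.2%). Those called lower numbered 103 (4.99%, 4.81%), 82 (7.90%, 8.33%), 69 (11.2%, 11.9%) and 93 (8.03%, 8.33%). At 72 h the last 3 settings gave 204 (19.8%, 19%), 174 (28.1%, 24.4%) and 255 (22.2%, 19%) higher and 122 (11.8%, 12.7%), 105 (17.0%, 17.6%) and 145 (12.6%, 12.7%) lower. At 3 h a q of 0.01 left 0, and 0 of all genes tested. Settings other than the q use fewer genes by construction. The median log2 fold change at 24 h was 0.0998 with no FPKM minimum, -0.0677 with a minimum of 5 and 0.102 as a mean. At 72 h it was 0.159 with no minimum and 0.171 as a mean, and at 3 h 0.016 as a mean. The cause of these shifts was not tested. No paired analysis was possible because the deposited values are pooled over replicates, and for the same reason no replicate could be left out. Sequence was read only where RefSeq promoter windows lie, so the purine content of other flank peaks was not analysed here.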
